A study of Homo sapiens with 6 samples.

Results

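The E2F and retinoblastoma family comprises the transcription factors that switch on DNA replication genes at the G1/S boundary, the proteins they pair with, and the pocket proteins that hold them in check. It was followed here through 10 genes: the activators E2F1, E2F2 and E2F3, the repressors E2F4 and E2F8, the dimer partners TFDP1 and TFDP2, and the pocket proteins RB1, RBL1 and RBL2. The members were chosen by gene symbol, matched to Ensembl identifiers, out of 58302 genes in each count table, and all 10 passed the filter on low counts. The samples were HL-60 cells, a human acute myeloid leukaemia line grown in suspension. In 3 libraries the cells carried a short hairpin RNA against OSGEP, the enzyme that makes the t6A modification of tRNA, and in 3 libraries they carried a control hairpin. The control is labelled WT for genotype, no drug treatment is named, and how many hairpins, clones or cultures stand behind each group is not given in the sources used here. The p-values therefore measure only how these 6 libraries vary, and that variation may be technical. The study names proliferation, the cell cycle and apoptosis as its interests.

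E2F1, E2F2 and E2F3 bind DNA as dimers with a DP protein, encoded by TFDP1 or TFDP2, and activate genes for S phase. In G1 they are bound and silenced by pRB, the product of RB1, until cyclin D and cyclin E kinases phosphorylate it. E2F4 works mainly as a repressor with p107 and p130, the products of RBL1 and RBL2, within the DREAM complex of resting cells, whereas E2F8 represses late in S phase without a DP partner or a pocket protein. RBL1, E2F1, E2F2 and E2F8 are themselves known E2F targets, so the family feeds back on itself.

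Expression is given in CPM, reads of a gene scaled to library size with TMM factors, and differences as log2 fold changes of knockdown over control from edgeR's quasi-likelihood test, adjusted by Benjamini-Hochberg over all genes tested and called at an adjusted p under 0.05. OSGEP itself was at 21.2, 23.1 and 20.9 CPM in knockdown libraries 1, 2 and 3 and at 49.0, 54.4 and 76.9 CPM in control libraries 1, 2 and 3. Its log2 fold change was -1.47 with an SE of 0.21 (edgeR adjusted p = 0.000228), and the groups did not overlap. Total counts per library ran from 8326982 to 10157091. Of 10 promyelocyte markers, which fit the labelled line, all were detected in every library. MPO, ELANE, PRTN3, AZU1 and MYB were called lower, and the other 5 were not called. Of the 10, 8 had a log2 fold change below 0. The groups did not overlap for 7, of which 6 were lower, against 28.9% of all genes tested without overlap. Sums over the 10 were 1314 to 1352 CPM in the knockdown and 3106 to 3270 CPM in the control. Of 4 monocyte and macrophage markers, 2 were tested and CD14 was called higher, with sums over the 4 of 85.1 to 97.9 CPM against 21.5 to 23.7 CPM. Erythroid markers summed to at most 1.19 CPM and lymphoid markers to at most 9.73 CPM in a library. Of 7 epithelial and mesenchymal markers, 6 were detected in every library, with sums of 80.9 to 87.9 CPM in the knockdown and 82.8 to 105 CPM in the control. The part of these shifts in the results that follow was not tested, and in bulk RNA fewer cells of a type and less RNA per cell cannot be told apart.

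Promoter windows from RefSeq (GRCh38.p14, 250 bases before to 50 after a gene's start) were held for 9 of the 10 members; E2F8 had none. Each window was searched on both strands for the letters TTTCCCGC, TTTCGCGC, TTTGCCGC and TTTGGCGC, the forms of the classical E2F site. Of 9 members, 5 held a match in at least 1 window, against 3.31% of all 35116 windows and 6.99% of the 9554 tested genes with a window. The 5 windows are shown because they place the site beside the start of the genes whose transcripts are described next. They are printed 5′ to 3′ on the gene's strand, with the matches in capitals.
RBL1, chr20:37095948-37096247, minus strand: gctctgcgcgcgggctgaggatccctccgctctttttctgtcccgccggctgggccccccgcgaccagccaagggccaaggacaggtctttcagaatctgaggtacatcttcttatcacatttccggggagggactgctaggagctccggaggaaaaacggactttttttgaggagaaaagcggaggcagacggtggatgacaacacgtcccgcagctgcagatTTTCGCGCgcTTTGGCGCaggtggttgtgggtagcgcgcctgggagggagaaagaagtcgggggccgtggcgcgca
TFDP1, chr13:113584503-113584802, plus strand: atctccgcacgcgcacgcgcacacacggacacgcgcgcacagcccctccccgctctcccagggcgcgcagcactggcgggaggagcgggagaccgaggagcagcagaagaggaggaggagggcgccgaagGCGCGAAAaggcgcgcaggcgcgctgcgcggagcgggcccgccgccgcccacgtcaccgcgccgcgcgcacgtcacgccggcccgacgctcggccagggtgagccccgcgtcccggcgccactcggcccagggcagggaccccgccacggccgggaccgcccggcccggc
E2F1, chr20:33686336-33686635, minus strand: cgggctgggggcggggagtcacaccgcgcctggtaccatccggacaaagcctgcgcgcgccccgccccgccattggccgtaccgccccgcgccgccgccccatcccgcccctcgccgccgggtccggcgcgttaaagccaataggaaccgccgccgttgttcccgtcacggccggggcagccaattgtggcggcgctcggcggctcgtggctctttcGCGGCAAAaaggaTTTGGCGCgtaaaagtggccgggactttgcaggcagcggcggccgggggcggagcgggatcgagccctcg
E2F2, chr1:23531184-23531483, minus strand: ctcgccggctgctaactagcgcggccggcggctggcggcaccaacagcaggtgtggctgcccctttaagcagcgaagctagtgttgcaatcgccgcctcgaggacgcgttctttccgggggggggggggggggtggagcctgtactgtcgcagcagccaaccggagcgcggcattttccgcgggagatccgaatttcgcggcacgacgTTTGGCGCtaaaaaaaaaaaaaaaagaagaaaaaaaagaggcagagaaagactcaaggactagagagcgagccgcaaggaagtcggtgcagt
E2F3, chr6:20401629-20401928, plus strand: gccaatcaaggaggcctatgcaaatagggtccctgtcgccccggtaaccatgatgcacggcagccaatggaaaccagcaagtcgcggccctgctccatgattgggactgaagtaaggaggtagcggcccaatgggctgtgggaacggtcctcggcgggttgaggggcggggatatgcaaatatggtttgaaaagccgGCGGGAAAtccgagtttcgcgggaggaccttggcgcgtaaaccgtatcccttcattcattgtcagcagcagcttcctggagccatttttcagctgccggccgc
RBL1 held a pair of matches, 26 and 16 bases before the start, and E2F1 likewise at 33 and 20 bases before it. The match lay 42 bases before the start in E2F2, 53 in E2F3 and 120 in TFDP1. The windows of E2F4, TFDP2 and RBL2 held none of these letters. Nor did that of RB1, which lies around a RefSeq start 172724 bases inside the gene as GENCODE draws it and is not its main promoter. The RBL2 windows lie around starts 494 and 1642 bases inside the gene. For TFDP2, 1 window lies at the gene's start and the others 120364 and 120918 bases inside the gene. A match is a description of the letters in a window and not a measured binding site.

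In the knockdown, 2 of the 10 members fell, RBL1 and TFDP1, and 0 rose. Of all 14018 genes tested, 10.8% were called in either direction, 5.56% lower and 5.19% higher. Scaled by library size alone, 859 genes were higher and 612 lower, against 727 higher and 780 lower with TMM. At an unadjusted p under 0.05, where 22.9% of all genes tested passed, 6 members passed, 5 lower and 1 higher. DESeq2 called 2 members lower and 0 higher, and limma-voom 3 lower and 0 higher. The knockdown and control values did not overlap for 6 members, 5 lower and 1 higher, against 28.9% of all genes tested. The median log2 fold change was -0.38 over the 10 members and 0.01 over all genes tested, and 9 members had a value below 0, as had 49.7% of all genes. These members were chosen with earlier results of these data known, so no test was run over them as a list.

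**Figure D1:**
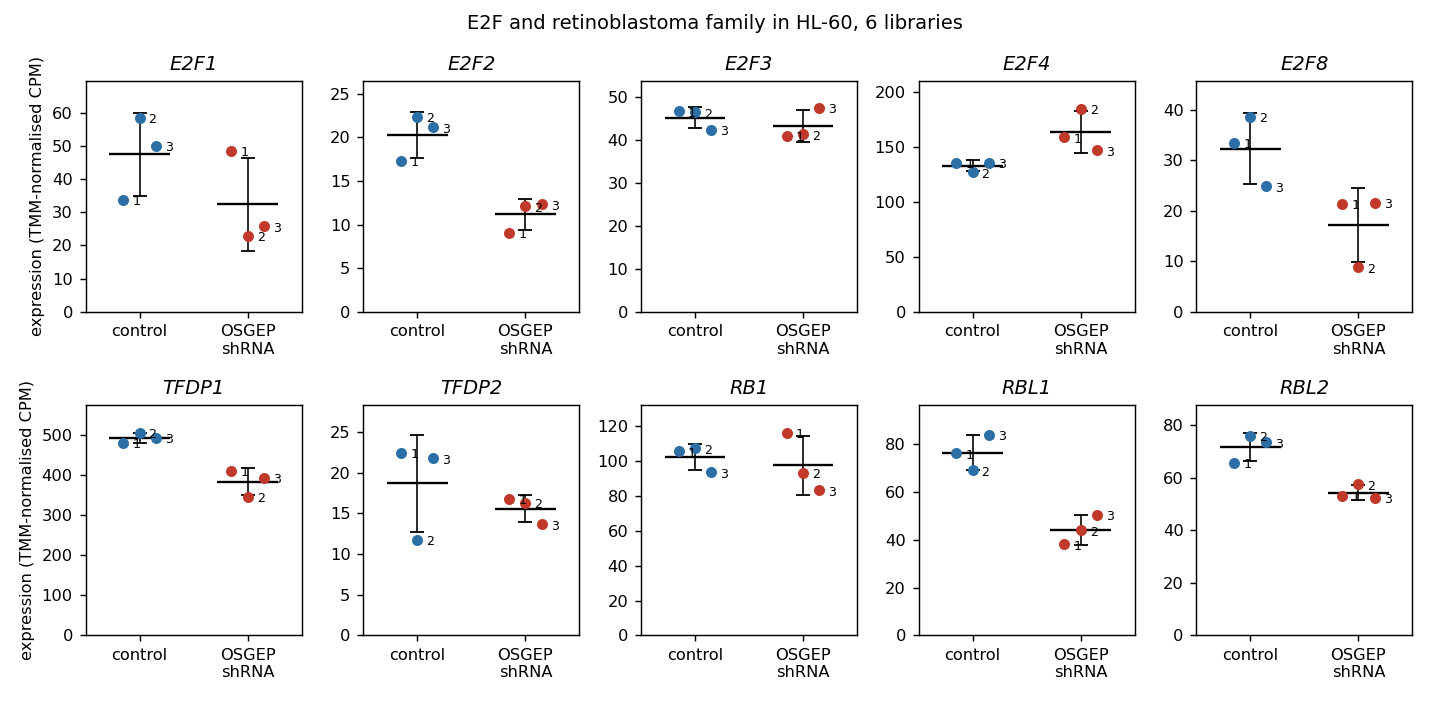
Expression of the 10 members in TMM-normalised CPM (linear axes from 0), with points for the libraries, numbered by replicate, and black bars for the mean ± SD of 3. RBL1, TFDP1, RBL2, E2F2 and E2F8 lie below all controls in each knockdown library, E2F4 is higher, and E2F1, E2F3, TFDP2 and RB1 overlap.

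Among the pocket proteins, RBL1 changed and RB1 did not pass the test. RBL1 (ENSG00000080839, chromosome 20, 36996349 to 37095995, minus strand, GRCh38) encodes the pocket protein p107. It was at 38.1, 43.9 and 50.5 CPM in knockdown libraries 1, 2 and 3. In control libraries 1, 2 and 3 it was at 76.2, 69.0 and 83.8 CPM. All knockdown libraries lay below all controls. The mean fell from 76.3 ± 7.39 to 44.2 ± 6.22 CPM (SD, n = 3 each), a level 42.1% lower (edgeR: log2 fold change -0.79 with SE 0.17, adjusted p = 0.00606). The call rested on 365 to 739 reads per library. It was lost without control library 3, the highest, at a log2 fold change of -0.72 and an edgeR adjusted p of 0.0508.

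RBL2 (ENSG00000103479, chromosome 16, 53433977 to 53491649, plus strand) encodes p130, which prevails in resting cells. It stood at 53.2, 57.4 and 52.3 CPM in the knockdown libraries and 65.7, 76.0 and 73.5 CPM in the controls. The groups did not overlap, but the log2 fold change of -0.40 (95% interval -0.73 to -0.07) was not called (edgeR adjusted p = 0.124). RB1 (ENSG00000139687, chromosome 13, 48303726 to 48599436, plus strand) was at 116, 93.2 and 83.3 CPM in the knockdown and 105, 107 and 93.5 CPM in the control. Its groups overlapped, with knockdown library 1 above every control and libraries 2 and 3 below, library 2 only just. The log2 fold change was -0.06 (interval -0.39 to 0.26, edgeR adjusted p = 0.869). Per kilobase of exon, the level of RBL1 was 0.355, 0.511 and 0.658 of that of RB1 in the knockdown libraries and 0.783, 0.698 and 0.971 in the controls, so the ratio did not overlap between the groups. The ratio of RBL1 to RBL2 overlapped, at 1.00 ± 0.163 in the knockdown and 1.31 ± 0.171 in the control (SD, n = 3 each).

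The genes that overlap RB1 on the other strand need care, because the strand setting of the counting is not given in the sources used here. LPAR6, a receptor gene that lies within the bounds of RB1 on the minus strand, with reads equal to 26.5% of the RB1 reads, rose from 16.3 ± 3.88 to 36.2 ± 5.93 CPM (edgeR: log2 fold change 1.15 with SE 0.26, adjusted p = 0.00732). RCBTB2, also on the minus strand and with reads equal to 35.5% of those of RB1, averaged 41.3 ± 8.59 CPM after knockdown against 29.7 ± 5.52 and was not called (edgeR adjusted p = 0.223). How far reads of these genes enter the RB1 count was not tested. RBL1 overlaps RPS3AP3, a ribosomal protein pseudogene with 136 reads over the 6 libraries, equal to 4.05% of the RBL1 reads. Other members have neighbours on the opposite strand too. The pseudogene PCNPP5 had reads equal to 6.21% of those of RB1, and AKTIP to 7.24% of those of RBL2. CSRP3-AS1 had reads equal to 3.10% of those of E2F8, with 0 in each knockdown library and 2, 31 and 10 in control libraries 1, 2 and 3. How far such reads enter the members' counts was not tested.

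Of the dimer partners, TFDP1 was called and TFDP2 was not. TFDP1 (ENSG00000198176, chromosome 13, 113584721 to 113641470, plus strand), the main DP protein gene, was at 411, 346 and 394 CPM in knockdown libraries 1, 2 and 3 and at 481, 506 and 493 CPM in control libraries 1, 2 and 3. The controls sat close together and every knockdown library lay below them. Its mean fell from 494 ± 12.7 to 384 ± 33.6 CPM (SD, n = 3 each), 22.3% lower (edgeR: log2 fold change -0.36 with SE 0.10, adjusted p = 0.0300). That call was lost in 5 of the 6 fits that left out 1 library, with log2 fold changes of -0.39 to -0.28 and edgeR adjusted p-values up to 0.134; it held without knockdown library 1, at -0.42 (edgeR adjusted p = 0.0114). It was also lost with no filter beyond 1 read (-0.36, edgeR adjusted p = 0.0596). The processed copy TFDP1P2, which could share reads, held 568 reads in all, equal to 2.31% of the TFDP1 reads.

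TFDP2 (ENSG00000114126, chromosome 3, 141944428 to 142149544, minus strand) was at 16.8, 16.3 and 13.6 CPM in the knockdown and 22.5, 11.8 and 21.8 CPM in the control. The groups overlapped, since control library 2 lay below all knockdown libraries. Its log2 fold change of -0.26 had an interval of -0.91 to 0.39 (edgeR adjusted p = 0.703), with 115 to 218 reads per library. The ribosomal protein pseudogene RPL19P6 lies inside the gene on the same strand, with reads equal to 17.4% of the TFDP2 count.

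None of the 3 activators was called. E2F2 (ENSG00000007968, chromosome 1, 23506430 to 23531220, minus strand) was at 9.08, 12.1 and 12.3 CPM in the knockdown libraries and 17.3, 22.4 and 21.2 CPM in the controls. Its mean was 44.9% lower in the knockdown with no overlap of the groups, yet the log2 fold change of -0.86 (interval -1.49 to -0.23) was not called by edgeR (adjusted p = 0.0776), with 87 to 219 reads per library. E2F2 passed in none of the 13 alternatives, where edgeR, DESeq2 and limma-voom gave adjusted p-values of 0.0631 to 0.244.

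E2F1 (ENSG00000101412, chromosome 20, 33675683 to 33686404, minus strand), the founding member, was at 48.5, 22.9 and 25.7 CPM in knockdown libraries 1, 2 and 3 and at 33.8, 58.5 and 50.1 CPM in control libraries 1, 2 and 3. Knockdown library 1 lay within the control range and the other knockdown libraries lay below it. The log2 fold change was -0.55 (interval -1.14 to 0.04, edgeR adjusted p = 0.259). Without knockdown library 1 it was -0.97 and was called (edgeR adjusted p = 0.0190). It was not called without any of the others, at -0.33 without knockdown library 2, -0.38 without control library 2 and -0.75 without control library 1, so the size of the value moved with several libraries.

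E2F3 (ENSG00000112242, chromosome 6, 20401906 to 20493715, plus strand) was at 40.9, 41.2 and 47.3 CPM in the knockdown and 46.6, 46.3 and 42.3 CPM in the control. The values interleaved, at a log2 fold change of -0.06 (interval -0.44 to 0.32, edgeR adjusted p = 0.893). Of its 2 windows, the one printed holds a match to the E2F site and the other, further inside the gene, holds none. The E2F3 count joins the E2F3a and E2F3b transcripts, which start at different promoters and cannot be separated in counts per gene.

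Neither repressor was called. E2F4 (ENSG00000205250, chromosome 16, 67192169 to 67198918, plus strand) was at 159, 184 and 147 CPM in the knockdown libraries and 135, 127 and 136 CPM in the controls. It was the 1 member whose knockdown libraries all lay above the controls, but the log2 fold change of 0.30 (interval 0.03 to 0.57) was not called (edgeR adjusted p = 0.168). E2F8 (ENSG00000129173, chromosome 11, 19224063 to 19241620, minus strand) was at 21.4, 8.78 and 21.6 CPM in the knockdown and 33.5, 38.7 and 24.9 CPM in the control. The groups did not overlap, with knockdown library 2 far below the rest, and the log2 fold change was -0.91 (interval -1.59 to -0.23, edgeR adjusted p = 0.0870). E2F8 was called with no filter beyond 1 read (-0.90, edgeR adjusted p = 0.0183), with limma-voom (-1.06, adjusted p = 0.0386) and without knockdown library 1 (-1.10, edgeR adjusted p = 0.0495). Without knockdown library 2 it stood at -0.58.

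**Figure D2:**
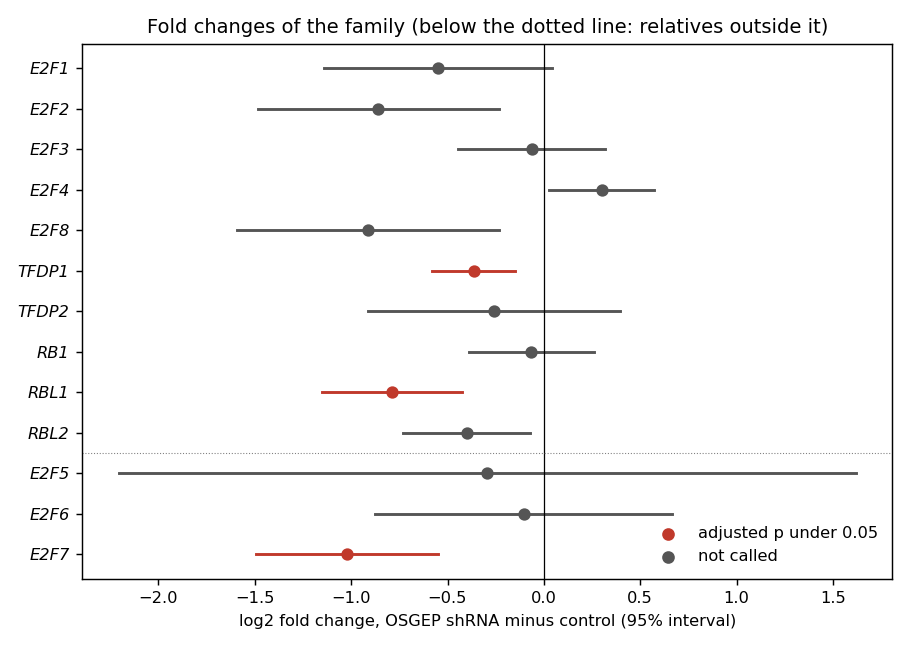
Log2 fold change of knockdown over control with its 95% interval from the edgeR fit on all 6 libraries, red where the adjusted p was under 0.05. RBL1 at -0.79, TFDP1 at -0.36 and, below the dotted line, E2F7 at -1.02 are called. The intervals of E2F1, E2F3, TFDP2 and RB1 include 0, as do those of E2F5 and E2F6 below the line.

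The relatives outside the 10 were read for completeness. E2F7, the partner of E2F8 in late S phase repression, was at 18.8, 28.4 and 19.3 CPM in the knockdown and 45.3, 45.6 and 44.4 CPM in the control. It fell from 45.1 ± 0.622 to 22.2 ± 5.39 CPM (edgeR: log2 fold change -1.02 with SE 0.22, adjusted p = 0.00631), and the call held in all 6 fits that left out 1 library (-1.23 to -0.92). E2F6, a repressor that works with polycomb proteins, was at 9.57 ± 0.337 and 10.3 ± 1.98 CPM (log2 fold change -0.10, edgeR adjusted p = 0.914). E2F5 was near the floor, at 2.04 ± 0.0753 and 2.50 ± 1.91 CPM, with an interval of -2.20 to 1.62 on the log2 scale. TFDP3 had 0 reads in every library.

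Levels between genes were compared per kilobase of exon, over the union of each gene's annotated exons, which overstates the length of genes with long rare exons such as TFDP2. In the control TFDP1 led at 132 CPM per kilobase, followed by E2F4 at 37.0, E2F1 at 19.0, RB1 at 15.8, RBL1 at 12.8, RBL2 at 9.80, E2F3 at 8.73, E2F8 at 7.81, E2F2 at 3.72 and TFDP2 at 1.57. The ranges of 3 libraries overlapped between the neighbours E2F1 and RB1, RBL2 and E2F3, and E2F3 and E2F8. Those of E2F1 and RBL1 and of RBL2 and E2F8, further apart in the order, overlapped too. These orders are not larger than the spread. In the knockdown RBL1 and RBL2 stood level at 7.42 CPM per kilobase each and E2F3 at 8.36. The level of E2F4 was 1.53, 2.66 and 1.89 times the sum of E2F1, E2F2 and E2F3 in the knockdown libraries and 1.47, 0.972 and 1.18 times it in the controls, all per kilobase, with no overlap between the groups. The nearest values, 1.53 and 1.47, lay close together. The ratio of E2F4 to E2F1 alone overlapped, at 3.96 ± 1.67 in the knockdown and 2.07 ± 0.659 in the control (SD, n = 3 each). The ratios of TFDP1 to TFDP2 and of E2F8 to E2F1 overlapped too.

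By pattern over the 6 libraries, measured as the root mean square difference of log2 CPM centred on each gene's mean among 9257 other protein-coding genes, the closest to E2F1 were PHF7 (0.104), POGLUT3 (0.123) and PDCD2L (0.138). Those closest to E2F8 were PRR3 (0.0918), SLC2A1 (0.136) and OARD1 (0.162), and those closest to RB1 were RAD9A (0.0309), XRN2 (0.0334) and TAF8 (0.0640). All of them share the same 6 libraries, and with so few points the likeness is a description only.

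Upstream of the pocket proteins, 3 of 15 tested cyclin and kinase genes fell and 0 rose, with 0 higher at an unadjusted p under 0.05 and 0 higher by DESeq2 or limma-voom. The 20.0% called lower stand beside 5.56% of all genes tested, and the list's median of -0.08 beside 0.01. CDK6, the cyclin D kinase that predominates in blood cells, was at 129, 108 and 92.2 CPM in the knockdown and 210, 228 and 232 CPM in the control (edgeR: log2 fold change -1.02 with SE 0.14, adjusted p = 0.000102). CCNA1, the cyclin A of germ cells and myeloid leukaemia, fell from 60.7 ± 7.74 to 20.9 ± 4.63 CPM (-1.54, SE 0.21). CDK2, the cyclin E and A kinase, had a log2 fold change of -0.85 (SE 0.25), and its call held in 1 of 6 fits leaving out a library (-0.97 to -0.73) and went with library size alone (-0.77). Among 6 tested CDK inhibitors, CDKN1A, which encodes p21, rose by 1.78 (SE 0.24) and CDKN2D, which encodes p19, fell by 1.99 (SE 0.30), and the other 4 were not called. That is 33.3% called, beside 10.8% of all genes tested.

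Of 9 genes of MuvB, the core of the DREAM complex, and its partners B-MYB and FOXM1, 0 were called by edgeR, with 1 lower and 1 higher at an unadjusted p under 0.05. The higher one was FOXM1, a driver of mitotic genes, at 17.5, 28.7 and 16.1 CPM in the knockdown libraries and 11.4, 14.5 and 11.6 CPM in the controls, without overlap (0.73, edgeR adjusted p = 0.160). DESeq2 and limma-voom each called 1, the lower one, RBBP4, a histone-binding subunit, with a mean of 69.9 ± 11.5 CPM after knockdown against 97.8 ± 4.47 (-0.48 with an edgeR adjusted p of 0.0588, and -0.47 with a DESeq2 adjusted p of 0.0416). MYBL2, which encodes B-MYB, had -0.22 (edgeR adjusted p = 0.422). Of 18 corepressors that pocket proteins recruit, 1 rose and 2 fell, at a median of -0.17. The 16.7% called stand beside 10.8% of all genes tested. SIN3B, a scaffold for histone deacetylases, rose from 36.4 ± 6.04 to 65.3 ± 8.36 CPM (edgeR: 0.84 with SE 0.19, adjusted p = 0.00762), DNMT1, the maintenance DNA methyltransferase, fell by 0.52 (SE 0.12), and EZH2, the polycomb methyltransferase, fell by 0.44 (SE 0.13). Those of SIN3B and DNMT1 were lost without knockdown 3 (0.75 and -0.48) or control 3 (0.71 and -0.45), and that of EZH2 in all 6 such fits (-0.48 to -0.40), with library size alone (-0.38), with RLE factors (-0.43, edgeR adjusted p = 0.0517) and with no filter beyond 1 read (-0.44, edgeR adjusted p = 0.0698).

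Of 12 E2F6 polycomb partners, 1 fell, L3MBTL2 (-0.74, SE 0.21), a call that held in 1 of 6 fits without a library (-0.88 to -0.49) and was lost with library size alone (-0.66). The 8.33% called in this list stand beside 10.8% of all genes tested. Of 9 coactivators, 0 were called by edgeR, DESeq2 or limma-voom, with 3 lower at an unadjusted p under 0.05 in edgeR. HCFC1 and KMT2A, which had the highest CPM of the list without regard to gene length, had log2 fold changes of -0.26 and -0.40, and KMT2A was called without knockdown library 1 (-0.53, edgeR adjusted p = 0.0256). Of 17 genes for the turnover and dephosphorylation of E2F and pocket proteins, 2 rose and 1 fell, 17.6% beside 10.8% of all genes tested. SKP2, the ubiquitin ligase subunit that p130 and p27 are degraded through, fell from 70.7 ± 11.7 to 43.9 ± 3.84 CPM (edgeR: -0.69 with SE 0.18, adjusted p = 0.0197). PPP2R2A, a regulatory subunit of phosphatase PP2A, rose by 0.63 (SE 0.14), and DDB1, a scaffold of CUL4 ubiquitin ligases, rose by 0.59 (SE 0.13). SKP2 kept its call in 3 of 6 fits without a library (-0.82 to -0.62), and PPP2R2A and DDB1 lost theirs without control 3 alone (0.57 and 0.55).

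Downstream, 24 of 64 textbook E2F target genes of DNA replication and S phase fell and 0 rose in edgeR, with 35 lower and 0 higher at an unadjusted p under 0.05. DESeq2 called 25 lower and limma-voom 23, with 0 higher in each. The 37.5% called lower stand beside 5.56% of all genes tested, and the median of -0.43 beside 0.01. The count was 11 without control library 3. Of the 64 genes, 60 had a log2 fold change below 0, as had 49.7% of all genes tested. For 38 every knockdown value lay below the lowest control. Over all genes tested 28.9% did not overlap in either direction, and the share lower alone was not computed. Some of the 64 also stand in lists above. DNMT1 and EZH2 are corepressors there, so their falls are counted in both lists. MYBL2 is in the MuvB list, and CCNA2, CCNE1, CCNE2 and CDC25A are in the cyclin and kinase list. The fall of replication genes is a known result of these data, so it gives no independent support. CDC7, the kinase that fires origins, was at 15.3, 23.0 and 38.2 CPM in the knockdown and 64.3, 54.7 and 62.8 CPM in the control (edgeR: log2 fold change -1.25 with SE 0.26, adjusted p = 0.00519). GINS2 and GINS1, parts of the helicase that opens DNA for replication, fell on the log2 scale by 1.09 (SE 0.23) and 1.00 (SE 0.17). TK1, the salvage kinase for thymidine, fell from 124 ± 7.31 to 66.3 ± 11.5 CPM (edgeR: -0.90 with SE 0.15, adjusted p = 0.000978). These 4 calls held in all 6 fits that left out a library.

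The targets were divided by function after the values were seen. Of 10 origin licensing genes 5 fell (median -0.57), of 8 helicase activation genes 5 (median -0.65), and of 6 genes of nucleotide supply 4 (median -0.64). Of 18 genes for polymerases, the clamp and ligation 5 fell (median -0.44), of 7 checkpoint and repair genes 2 (median -0.44), and of 9 chromatin and histone genes 2 (median -0.24). Of 2 other targets 1 fell (median -0.46). These counts stand beside 5.56% of all genes tested called lower. The 4 cell cycle drivers CCNE1, CCNE2, CCNA2 and CDC25A had 0 calls in edgeR, DESeq2 and limma-voom and 0 at an unadjusted p under 0.05. Their log2 fold changes ran from -0.39 to 0.26. Over all genes tested, edgeR called 10.8% in either direction and 22.9% had an unadjusted p under 0.05. With 4 genes, 0 calls do not set them apart from other genes. CCNA2, at -0.39, did not overlap, with 38.9, 40.3 and 30.5 CPM in the knockdown and 45.9, 54.6 and 43.1 CPM in the control. The groups of CCNE1, CCNE2 and CDC25A overlapped. The differences between these divisions were not tested. CCNE1, the classical E2F1 target that drives CDK2, was at 13.5, 14.8 and 11.7 CPM in the knockdown and 11.3, 15.1 and 11.9 CPM in the control. Its values interleaved, with an interval of -0.61 to 0.73 on the log2 scale.

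Of 35 G2/M genes that MuvB drives with B-MYB and FOXM1, 4 fell and 0 rose, with 10 lower and 1 higher at an unadjusted p under 0.05. The higher one, CDC20, is also in the turnover list above (log2 fold change 0.61, edgeR adjusted p = 0.0769). DESeq2 called 5 lower and 1 higher, and limma-voom 5 lower and 0 higher. The 11.4% called lower and the median of -0.17 stand beside 5.56% and 0.01 for all genes tested and 37.5% and -0.43 for the E2F targets, and no test compared the 2 lists. The 4 were AURKB (-0.79), KIF11 (-0.60), CDK1 (-0.57) and ASPM (-0.38), kinases and spindle proteins of mitosis. KIF11 kept its call in all 6 fits without a library, AURKB and CDK1 in 3 each, and ASPM in 1. The ASPM call was also lost with library size alone (-0.31), with RLE factors (-0.36, edgeR adjusted p = 0.0579) and with no filter beyond 1 read (-0.37, edgeR adjusted p = 0.0571).

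**Figure D3:**
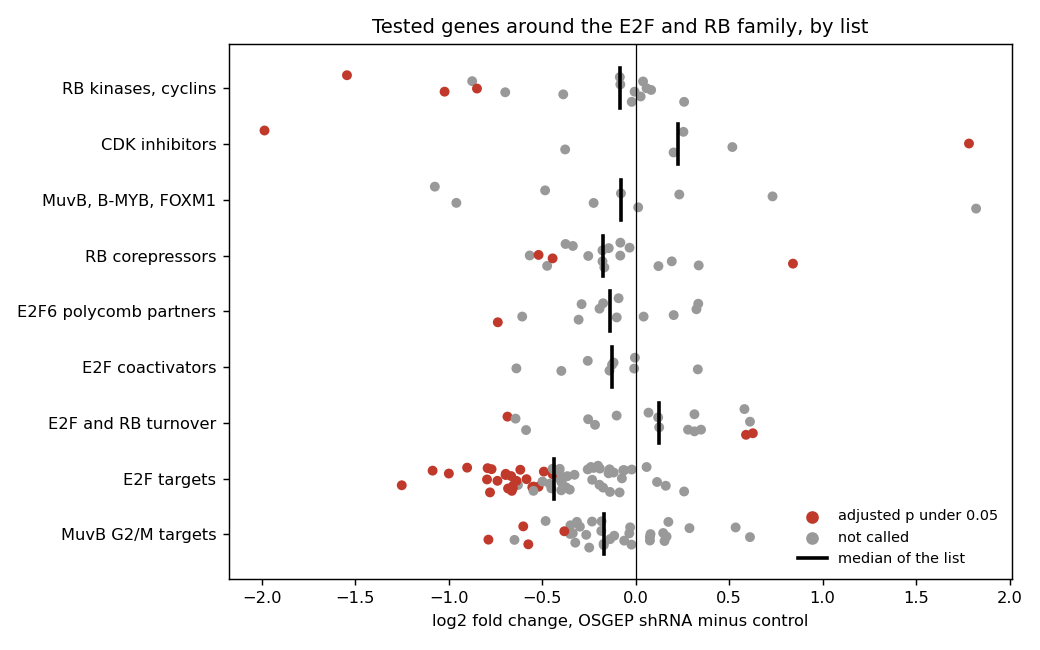
Log2 fold change of each tested gene in 9 lists around the family, 1 point a gene (vertical scatter is for display), red where called, with a black bar at each list's median. The E2F targets have 24 called genes, all below 0, and a median of -0.43, and the G2/M targets have 4 and a median of -0.17.

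The motif and the change can be set side by side. Of the target list's 53 genes with a promoter window, 26 held a match, 49.1%. Of these 26, 14 fell, and of the 27 with no match, 7 fell. Over all tested genes with a window, 62 of the 668 with a match were called lower and 20 higher, 9.28% and 2.99%, against 5.63% lower and 5.94% higher among the 8886 without. Outside the target list and the members the shares were 7.22% lower and 3.14% higher of 637 with a match, against 5.57% and 5.96% of 8855 without. These shares carry no test, and matches in the windows also differ with base composition, which was not examined. Among the members with a match, RBL1 (-0.79) and TFDP1 (-0.36) were called and E2F2 (-0.86), E2F1 (-0.55) and E2F3 (-0.06) were not. Among those with a window and no match, RBL2 (-0.40), TFDP2 (-0.26), RB1 (-0.06) and E2F4 (0.30) were not called. The windows of RB1 and RBL2 lie away from the gene's GENCODE start, so a match at that start could have been missed.

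**Figure D4:**
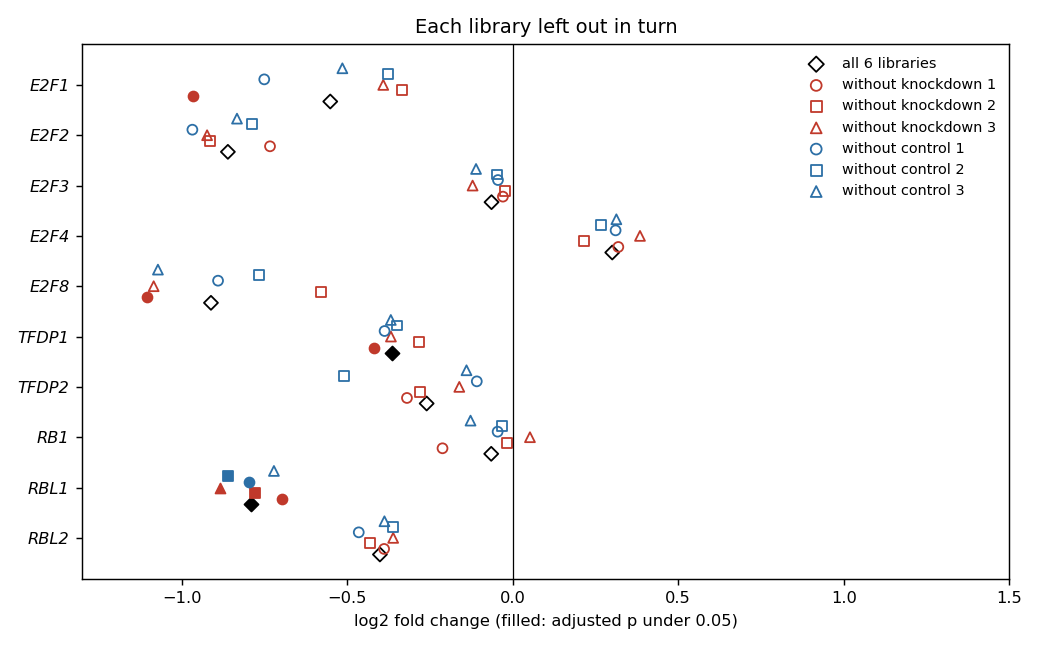
Log2 fold change of each member with all 6 libraries (black diamonds) and with each knockdown (red) or control (blue) library left out, filled where the adjusted p was under 0.05. RBL1 is called in 5 of the 6 fits that leave out a library and TFDP1, E2F8 and E2F1 in 1 each, that without knockdown library 1.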

How the data were processed

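The deposited values were raw read counts per Ensembl gene, 1 table for each of 6 libraries, with 58302 genes in each. Per the labels' protocols, total RNA went into stranded mRNA libraries read as paired ends of 150 bp. Per the submitters' processing notes, HISAT2 2.1.0, featureCounts 1.6.3 and the builds GRCh38 and GRCm38 were used; the sources used here do not give their roles, the annotation release, the strand setting or the handling of multiply mapped reads. Symbols and positions came from GENCODE 29 on GRCh38 (58039 identifiers matched) and a table of current names (57532 matched). Groups came from the sample titles.

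Tests used edgeR 4.0.16 in R 4.3.3 (quasi-likelihood, group as the only term, TMM, filterByExpr with a minimum count of 10 and total of 15), which kept 14018 genes. Tests were two-sided. Each SE was the fold change divided by the root of F. The steps were tested on simulated counts. There 83.6% of 67 changes of 4-fold, 37.3% of 67 of 2-fold and 9.09% of 66 of 1.5-fold were recovered. Of the 92 calls 5 were false. Fewer genes were changed there than were called here, so these shares need not hold here. A gene that was not called is therefore not shown to be unchanged. The members, lists and tests were chosen with earlier results of these data known. Named beside the members are OSGEP; of each list, up to 4 called genes, taken by size of change where mean CPM reached 5, or, with none called, the 2 most abundant; every other E2F gene; and the 3 genes most like E2F1, E2F8 and RB1. LPAR6 and RCBTB2 were named for their overlap with RB1. Named after their values were seen were CCNE1, CCNE2, CCNA2, CDC25A, FOXM1, CDC20, AKTIP, CSRP3-AS1, the called marker genes and pseudogenes. A monocyte marker and a coactivator of the original lists are not reported here, and their lists were computed without them. Alternatives were scaling by RLE or by library size only, a filter of 1 read or of mean CPM 5, a replicate block, each library left out, DESeq2 1.42.0 and limma-voom (limma 3.58.1).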

Additional observations from a re-analysis of the deposited data

How the results depend on the processing

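Replicate numbers were shared between the groups, but no label says that a number marks a shared culture or day. The deviations of same-numbered libraries had correlations of -0.116, -0.0618 and -0.0368, and no library correlated best with its own number. These values gave no sign of pairing, but with 3 libraries per group they cannot exclude a shared culture or day. With the replicate block, 1072 genes were called over all and 21 of the E2F targets, and the members called went from 2 to 1, RBL1. CDK2 (-0.85, edgeR adjusted p = 0.0673), EZH2 (-0.44, edgeR adjusted p = 0.0986) and ASPM (-0.38, edgeR adjusted p = 0.115) also lost their calls under the block. With each library left out in turn, the genes called ran from 870 to 1624 (1507 with all), the members called from 0 to 4 and the E2F targets called from 11 to 24. Over all genes 941 were called without knockdown 3, 890 without control 2 and 870 without control 3; of the members, 4 without knockdown 1, 0 without control 3 and 1 without each of the others. RBL1 kept its direction in all 13 alternatives (-0.88 to -0.70) and its call in 12, and TFDP1 kept its direction in 13 and its call in 6. E2F3 had a log2 fold change of 0.0048 with library size alone, and RB1 had 0.00075 there and 0.052 without knockdown 3, within -0.21 to 0.052 over the fits without a library, so neither has a settled sign. Library size alone moved the median of all genes tested from 0.01 to 0.08.

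Counts in the smaller lists moved by over 1.5 times in places: the MuvB list from 0 to 1 (DESeq2, limma-voom, without knockdown 2), the corepressors from 3 to 0 (without knockdown 3 or control 3), the E2F6 partners from 1 to 0 (library size alone and 5 fits without a library), the coactivators from 0 to 1 (without knockdown 1), the turnover list from 3 to 5 (no filter, without knockdown 1), 6 (DESeq2) and 0 (without control 3), and the G2/M list from 4 to 7 (without knockdown 1), 2 (without knockdown 3 or control 1) and 1 (without control 2 or 3). The cause of these shifts was not tested. E2F2, E2F8 and TFDP2 had between 87 and 378 reads in a library and E2F1 between 217 and 572, and the intervals of all 4 span over 1 on the log2 scale; the part of depth in this was not tested.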
